A study of Mus musculus with 24 samples.

Results

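The 10 genes followed here mark the epithelium of the choroid plexus, and they were read in RNA sequencing libraries of cerebellum, liver and testes from Thumpd1 KO and WT mice. They are Ttr, Folr1, Kl, Clic6, Sostdc1, Slc4a5, Calml4, Cldn2, Aqp1 and Trpv4, taken by symbol from a table of 55450 genes. The KO group carried Thumpd1 disrupted by Cas9 in C57BL/6N eggs. The line was then backcrossed and kept on C57/BL6, and the WT group held age-matched littermates of it with intact Thumpd1. Animals were of either sex and 6 to 12 weeks old, and no treatment was given to either genotype. RNA came from a portion cut from each organ, so that a cerebellum library reports on whatever tissue lay in that portion. Each tissue had 4 WT libraries, numbered 1 to 4, and 4 KO libraries, numbered 5 to 8. The study calls the libraries of a group biological replicates. The sources used here do not say which founder line gave the KO samples, or how libraries map to animals, so that p-values measure the spread between these libraries.

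The choroid plexus is a fringe of epithelium over a core of vessels in the ventricles of the brain, and the roof of the fourth ventricle brings it up against the cerebellum. Its epithelium secretes the cerebrospinal fluid by moving sodium, chloride, bicarbonate and water from blood to ventricle. It also secretes transthyretin, encoded by Ttr, which carries thyroxine and binds the retinol carrier Rbp4. Cerebellar neurons and glia express little of most of these genes, and hepatocytes are the other main source of Ttr in the body.

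Library totals ranged from 16353797 to 37889615 counts, and from 16353797 to 24728845 in cerebellum. Values are in CPM, counts scaled to a common library total of 1000000. A count of 0 allows up to 3 counts, which is 0.121 to 0.183 CPM in the cerebellum libraries, and such limits cover counting error only. Thumpd1 itself fell by 8.72 log2 units in KO cerebellum, fell by 7.47 in liver and fell by 4.81 in testes, and each library matched its label. Of 12 defining genes of the 3 tissues, such as Pcp2 and Gabra6 of cerebellum, Alb of liver and Prm1 of testes, 12 were higher in every library of their own tissue than in any other. Pcp2 ran from 156 to 205 CPM and Gabra6 from 354 to 466 CPM over the cerebellum libraries.

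On mm10, 4 members lie on chromosomes 5 and 6: Kl at chr5:150952607-150993817 and Trpv4, on the minus strand, at chr5:114622152-114658421, Slc4a5 at chr6:83219828-83304945 and Aqp1 at chr6:55336432-55348555. Folr1 lies at chr7:101858331-101870788 on the minus strand, Calml4 at chr9:62858080-62875921, Sostdc1 at chr12:36314139-36318452, Clic6 at chr16:92485736-92541243 and Cldn2 at chrX:139800828-139811386. All are protein coding, and counts cover their exons.

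Upstream sequence is shown for Kl, Cldn2 and Aqp1, because these genes were high and low in the same cerebellum libraries but differed in liver, where Kl was near 0 and the other two were abundant. RefSeq start sites on GRCm38.p6 were held for 6 members (Kl, Slc4a5, Calml4, Cldn2, Aqp1 and Trpv4). The 250 bases before each start, 5′ to 3′ on the plus strand, lie at chr5:150952357-150952606 for Kl, at chrX:139800558-139800807 for Cldn2 and at chr6:55336049-55336298 for Aqp1. A TATA box was searched for as TATAAA on either strand, the core site of OTX factors as TAATCC, and a forkhead site as TGTTTAC. Capitals mark any match.
Kl: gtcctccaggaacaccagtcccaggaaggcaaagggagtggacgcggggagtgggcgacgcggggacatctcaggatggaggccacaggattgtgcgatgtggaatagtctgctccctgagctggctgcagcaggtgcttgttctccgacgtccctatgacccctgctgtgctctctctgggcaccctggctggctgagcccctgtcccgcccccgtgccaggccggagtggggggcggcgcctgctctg
Cldn2: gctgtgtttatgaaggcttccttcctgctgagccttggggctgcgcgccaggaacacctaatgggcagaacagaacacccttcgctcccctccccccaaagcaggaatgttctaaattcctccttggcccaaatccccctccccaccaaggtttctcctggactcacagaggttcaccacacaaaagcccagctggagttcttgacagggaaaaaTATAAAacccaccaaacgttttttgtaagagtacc
Aqp1: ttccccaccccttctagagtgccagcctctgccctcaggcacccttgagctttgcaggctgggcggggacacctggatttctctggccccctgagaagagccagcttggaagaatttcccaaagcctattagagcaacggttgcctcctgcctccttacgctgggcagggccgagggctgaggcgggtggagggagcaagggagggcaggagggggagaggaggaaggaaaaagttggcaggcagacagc
The one match among the 3 was a TATAAA in Cldn2, whose first base lay 35 bases before the start. Over the 6 members, TATAAA was found in 2 (Slc4a5 and Cldn2), against 13.0% of 27025 promoters of the same length, and TAATCC and TGTTTAC in 0, against 6.38% and 3.09%. Among 31 other choroid plexus genes with a promoter in the table, TATAAA was found in 5, TAATCC in 2 (Mfrp and Ace) and TGTTTAC in 0. The letters searched did not overlap one another, and a match or its lack says nothing of whether a factor binds.

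In cerebellum the choroid plexus genes differed far more between libraries of the same genotype than between the genotypes. Ttr was at 935, 962, 1.09 and 0.82 CPM in WT 1 to WT 4, and at 1.87, 1.96, 317 and 312 CPM in KO 5 to KO 8. WT 1 and WT 2 thus stood highest, KO 7 and KO 8 stood between, and the other four libraries lay near the bottom, so that both genotypes held high and low libraries and their ranges overlapped. The highest library was 1179-fold above the lowest. These were not matters of few reads at the upper end, since Ttr had 21592 and 23799 counts in WT 1 and WT 2 and 16 to 33 counts in the lowest libraries.

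The other secreted member moved in the same order. Sostdc1, an extracellular antagonist of BMP and WNT signals, was at 7.97, 8.41, 0.11 and 0 CPM in WT 1 to WT 4, and at 0.11, 0.061, 3.42 and 3.84 CPM in KO 5 to KO 8. WT 4 had no Sostdc1 count, and WT 2 was at least 55.0-fold above the limit that this 0 allows. The receptors behaved likewise. Folr1, the folate receptor that takes folate across the epithelium, was at 6.97, 7.28, 0.054 and 0 CPM in WT and at 0.17, 0.18, 2.71 and 3.37 CPM in KO. Kl, which encodes klotho, the co-receptor of FGF23 whose ectodomain is shed into the fluid, was at 56.9, 55.4, 2.01 and 1.27 CPM in WT and at 1.98, 2.14, 17.8 and 18.1 CPM in KO. WT 1 and WT 2 were again highest for both receptors, and the range was 44.6-fold for Kl and at least 47.6-fold for Folr1.

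Members that move ions and water gave the same picture. Slc4a5, the sodium bicarbonate cotransporter of the ventricular face, was at 16.2, 15.9, 1.63 and 2.04 CPM in WT and at 1.75, 2.14, 6.08 and 6.74 CPM in KO. Aqp1, the water channel of that face, was at 5.59, 6.75, 0.11 and 0 CPM in WT and at 0.23, 0.061, 1.94 and 1.68 CPM in KO. In both, the same 4 libraries stood above the rest, with ranges of 9.89-fold for Slc4a5 and at least 44.1-fold for Aqp1. Cldn2, the claudin of leaky tight junctions that lets cations and water pass between cells, was at 6.54, 6.55, 0.49 and 0.25 CPM in WT and at 0.68, 0.61, 2.61 and 2.58 CPM in KO. Trpv4, a cation channel opened by swelling and other stimuli, was at 7.32, 6.55, 0.82 and 0.51 CPM in WT and at 1.30, 0.92, 2.15 and 2.79 CPM in KO. Their ranges were 25.7-fold and 14.4-fold.

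Clic6 and Calml4 stood somewhat apart. Clic6, of the chloride intracellular channel family, was at 29.2, 28.0, 6.15 and 7.34 CPM in WT and at 8.26, 7.58, 11.6 and 14.4 CPM in KO. Its range was 4.75-fold, the smallest of the 10, because its lowest libraries stayed above 6 CPM. Calml4, a calmodulin-like protein, was at 2.99, 2.87, 0.33 and 0.15 CPM in WT and at 0.79, 0.49, 0.66 and 1.05 CPM in KO, which rests on 3 to 71 counts. For Calml4, KO 7 was not above KO 5, and this was the one departure from the order of libraries that the other 9 members shared with Ttr. That order (WT 1 and WT 2 above KO 7 and KO 8, and these above the other four) was shown by 0.74% of the 16225 genes that passed the filter in cerebellum. The filter asked for at least 1 CPM in at least 4 libraries. It was passed by 9 members, Calml4 being the one that failed it. Folr1, Sostdc1, Cldn2 and Aqp1 reached 1 CPM only in WT 1, WT 2, KO 7 and KO 8, so that the filter itself favours this order.

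**Figure D1:**
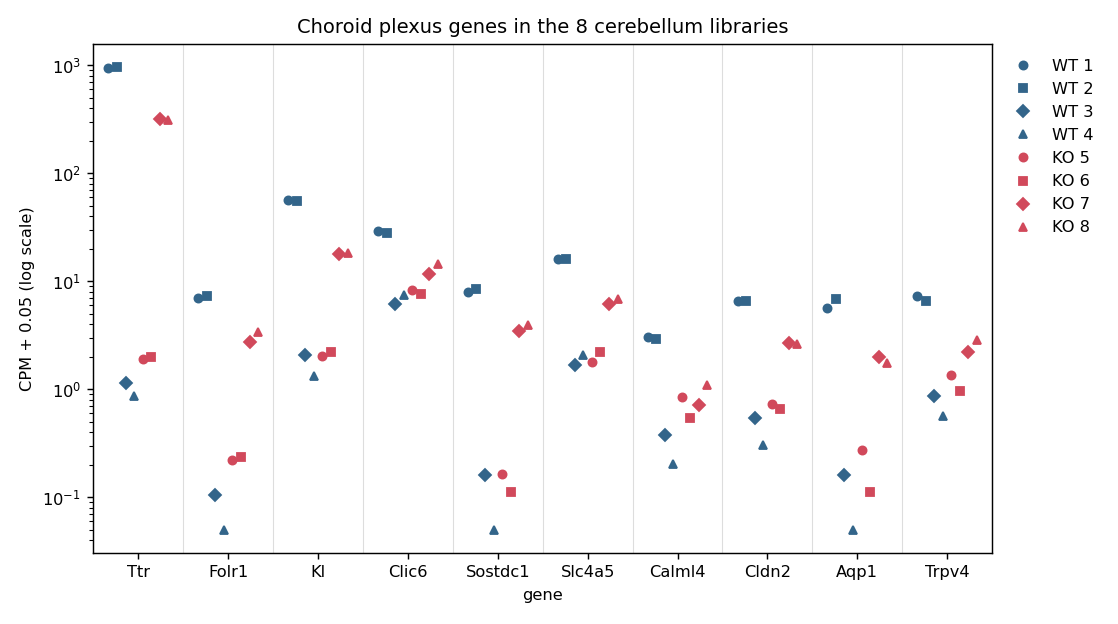
CPM plus 0.05, on a log axis, of each member in the 8 cerebellum libraries, with WT in blue, KO in red, 1 symbol per library and the libraries in the order of their numbers within each gene. Ttr spans 0.82 to 962 CPM, and WT 1 and WT 2 are highest for all 10 genes.

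In cerebellum, libraries with neighbouring numbers had close counts of these genes. The members' counts in libraries 1 and 2, 3 and 4, 5 and 6, and 7 and 8 differed by a mean chi-square per gene of 0.52 to 1.59, where counting noise alone gives about 1. For the other 8 pairs of cerebellum libraries within a genotype it was 547 to 2101. Members with too few counts were left out, so that 6 entered for WT 3 and WT 4 and 7 for KO 5 and KO 6. Low counts there leave little room to see a difference. In the other tissues, neighbouring pairs gave 3.44 to 593 per member in liver and 0.96 to 7.65 in testes. Over all genes the neighbouring cerebellum pairs still differed, with a chi-square per gene of 3.05 to 5.12, and other pairs gave 5.23 to 11.3. No library was therefore taken as a repeat of another. Whether neighbouring numbers share an animal, a portion or a day of handling was not found in the sources used here.

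Added together, the members came to 1075 and 1100 CPM in WT 1 and WT 2, 12.8 and 12.4 CPM in WT 3 and WT 4, 17.1 and 16.1 CPM in KO 5 and KO 6, and 366 and 367 CPM in KO 7 and KO 8. Ttr made up 85.1% to 87.5% of this sum in the 4 libraries where it was high and 6.58% to 12.1% in the other four. In bulk RNA, fewer choroid plexus cells in a portion and less RNA of these genes per cell cannot be told apart.

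The members were then set against Ttr with a straight line through all 8 cerebellum libraries, in CPM. Per 1000 CPM of Ttr, the slope was 57.2 CPM for Kl, 22.4 for Clic6, 14.9 for Slc4a5, 8.57 for Sostdc1, 7.41 for Folr1, 6.42 for Aqp1, 6.38 for Trpv4, 6.37 for Cldn2 and 2.63 for Calml4. Where the line meets a Ttr of 0, Aqp1 was left with 0.013 CPM, Folr1 with 0.25 CPM and Sostdc1 with 0.28 CPM. Clic6 was left with 6.97 CPM, Slc4a5 with 1.83 CPM and Kl with 1.32 CPM, levels that did not go with Ttr. Leaving out each pair of neighbouring libraries moved the slope of Slc4a5 from 14.4 to 15.0, that of Cldn2 from 6.23 to 6.65 and that of Kl from 51.4 to 57.8. Relative to their size, the slopes of the other members moved more. They were Sostdc1 (8.36 to 11.4), Folr1 (7.21 to 9.36), Clic6 (18.1 to 23.3), Aqp1 (5.48 to 6.53), Trpv4 (5.04 to 6.66) and Calml4 (1.33 to 2.90). For each of them the largest move came when WT 1 and WT 2 were left out. These lines are descriptions without a test, because the libraries lie at only a few levels of Ttr.

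The ratio of a member to Ttr can be read directly in the 4 libraries with 5932 to 23799 Ttr counts. Per 1000 Ttr counts, Kl had 60.8 and 57.5 counts in WT 1 and WT 2 and 56.2 and 58.0 in KO 7 and KO 8. Those ratios lay within 56.2 to 60.8, although Ttr itself ran from 312 to 962 CPM in these libraries. Sostdc1 had 8.52 and 8.74 in the same WT libraries against 10.8 and 12.3, Slc4a5 17.3 and 16.6 against 19.2 and 21.6, and Clic6 31.2 and 29.1 against 36.6 and 46.2. Aqp1 had 5.97 and 7.02 against 6.12 and 5.39. The ratios are given library by library, and the genotypes were not compared in them, because the libraries were taken for their Ttr.

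**Figure D2:**
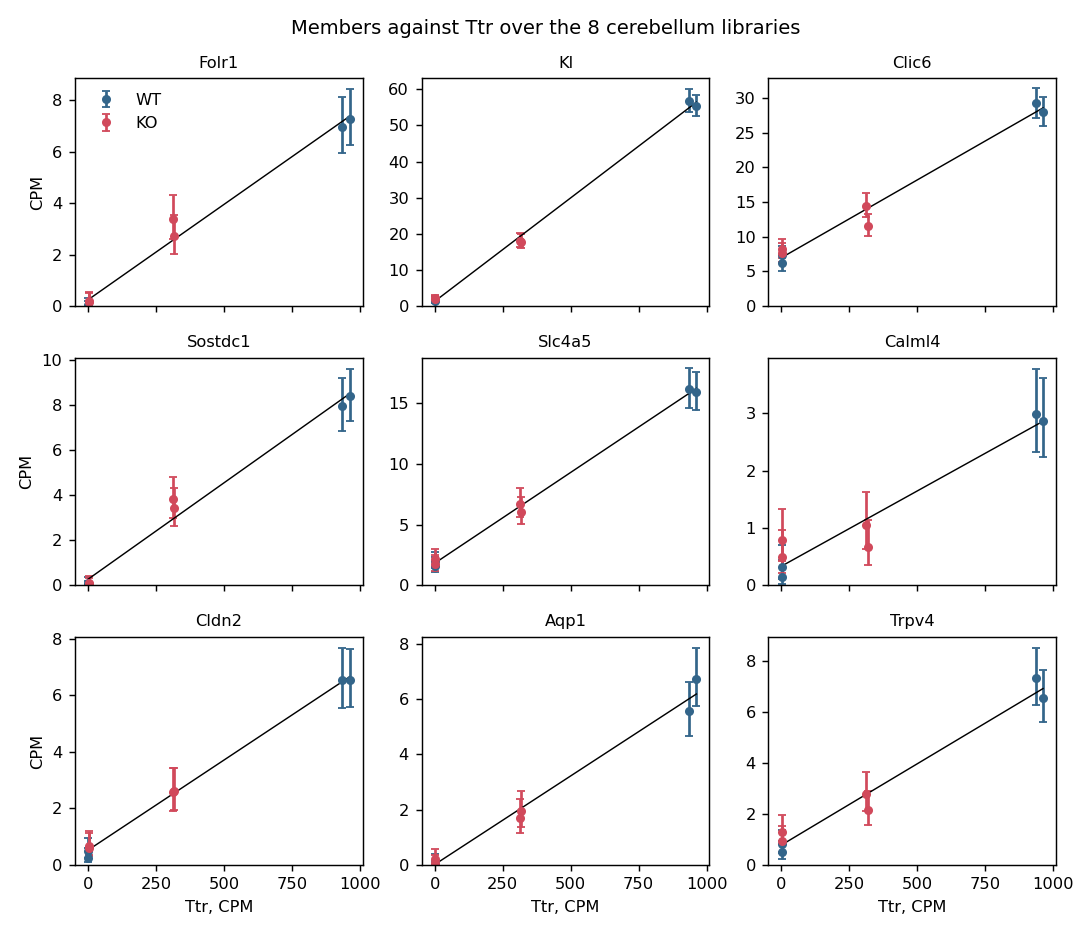
CPM of 9 members against CPM of Ttr in the 8 cerebellum libraries (WT blue, KO red), with exact 95% counting intervals as bars and the fitted straight line. Each line was fitted to both genotypes together, and the lines of Clic6, Slc4a5 and Kl meet the vertical axis at 6.97, 1.83 and 1.32 CPM.

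Other genes were ranked by how like Ttr they were, with Pearson's r of log2(CPM + 0.5) over the 8 cerebellum libraries as the measure of likeness and no test. Among 16224 genes, Sostdc1 ranked 1 (r = 0.995), Folr1 2 (0.993), Kl 4 (0.987), Cldn2 13 (0.971), Aqp1 15 (0.967), Slc4a5 21 (0.963), Trpv4 56 (0.926) and Clic6 65 (0.914). An r of at least 0.9 was reached by 83 genes, 0.512% of those ranked. Outside the members the 8 most like Ttr were Mfrp, F5, Sema3b, Ube2h, Rbm47, Tmem86a, Sfrp1 and Nid2. Likeness is not size. Mfrp ran from 0.067 to 17.4 CPM and F5, coagulation factor V, from 0.33 to 21.2 CPM, whereas Ube2h, a ubiquitin-conjugating enzyme, ran only from 125 to 134 CPM.

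A list of 36 other choroid plexus genes was read next. Like the members, it was chosen with earlier results of these data known. Of the 36, 28 passed the filter in cerebellum, 22 showed the library order of Ttr and 17 had an r of at least 0.9 with it. Over all genes that passed the filter, the shares were 0.74% and 0.512%. Mfrp, F5, Kcne2 and Gmnc reached 1 CPM only in WT 1, WT 2, KO 7 and KO 8. The filter thus favours genes with this order, and the counts are no independent support for it. The most abundant was Enpp2, which encodes the lipid enzyme autotaxin, at 683, 682, 83.5 and 85.8 CPM in WT and 96.5, 104, 266 and 283 CPM in KO. Its line had a slope of 623 CPM per 1000 CPM of Ttr and met a Ttr of 0 at 88.5 CPM. Kcnj13, a potassium channel, was at 10.1, 9.91, 0.87 and 0.87 CPM in WT and 0.96, 1.16, 3.58 and 2.63 CPM in KO. It kept the order of Ttr. So did Htr2c, though with a different spacing. Htr2c, a serotonin receptor that neurons also make, was at 24.8, 24.02, 1.36 and 1.27 CPM in WT and 8.42, 8.99, 10.5 and 11.3 CPM in KO, so that KO 5 and KO 6 were well above WT 3 and WT 4. The 6 tested genes outside the order were Cdr2, Otx2, Rdh5, Slc29a4, Slc5a5 and Wfikkn2. Wfikkn2, a secreted antagonist of TGF-beta family ligands, was highest in KO 7 and KO 8, at 4.34 and 4.84 CPM, with 2.82 and 2.51 CPM in WT 1 and WT 2.

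Markers of neighbouring cell types were read in the same libraries. The order of Ttr was shown by 0 of 16 genes of meninges, fibroblasts and mural cells, 0 of 12 of endothelial cells and 0 of 3 tested genes of ependymal cells, and by 0.74% of all genes, so that these counts alone do not set the lists apart from other genes. Summed, the 15 ependymal genes came to 23.7, 22.3, 14.7 and 13.5 CPM in WT and 19.5, 18.4, 11.2 and 11.9 CPM in KO, and Foxj1, the regulator of motile cilia, to 10.4, 10.1, 5.17 and 4.90 CPM and 7.07, 7.15, 4.29 and 4.79 CPM. WT 1 and WT 2 were highest and KO 7 and KO 8 lowest, unlike Ttr. The meningeal sum was 645, 664, 589 and 602 CPM in WT and 642, 633, 717 and 710 CPM in KO. Within each genotype it was higher in the libraries where Ttr was high, by far less than Ttr, and its part in the members' levels was not tested. The endothelial sum ran from 257 to 262 CPM in WT and from 270 to 286 CPM in KO. Genes of midbrain and dorsal brainstem neurons summed to 2.89 to 5.63 CPM in WT and 7.63 to 11.5 CPM in KO, without overlap. Of all genes tested in cerebellum, 13.8% did not overlap either. The sum rests on few genes, since 10 of the 15 were under 1 CPM in every cerebellum library and 2 passed the filter. Within that list Tfap2d was at 0, 0.040, 0 and 0.10 CPM in WT and 1.24, 2.08, 1.23 and 1.05 CPM in KO. The part that the makeup of a portion has in the members' levels was not tested.

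**Figure D3:**
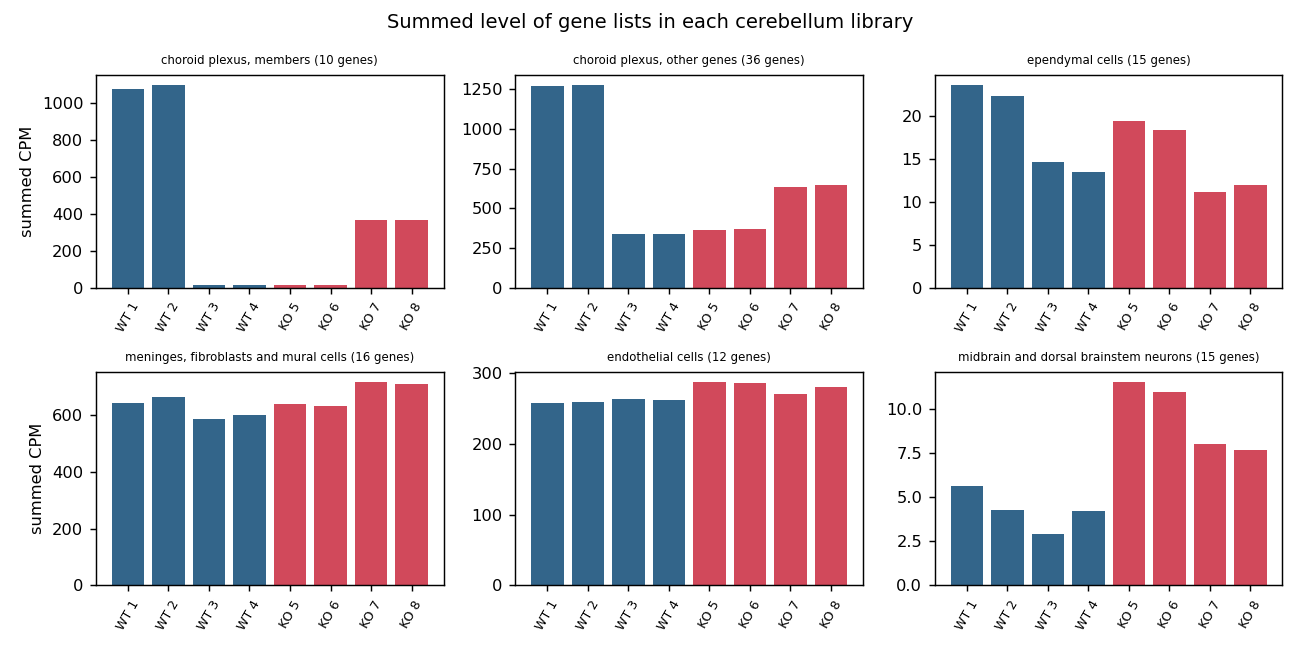
Summed CPM of 6 gene lists in each cerebellum library, WT in blue and KO in red, with bars starting at 0 and a separate scale for each list. The members and the 36 other choroid plexus genes are highest in WT 1 and WT 2, while the ependymal, meningeal and endothelial sums follow other orders.

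The comparison of KO with WT asked whether loss of Thumpd1 changed these genes. In cerebellum limma-voom with quantile normalization called 0 of the 9 members tested at an adjusted p of 0.05, where 6.44% of all 16225 genes were called. An unadjusted p under 0.05 was reached by 0 members, and edgeR and DESeq2 also called 0. The log2 change of Ttr was -0.58 ± 2.50 (SE), with an interval from -5.97 to 4.82. At that width neither a large fall nor a large rise could have been seen. The value also moved with the method, to -1.59 by edgeR and by DESeq2. By edgeR Aqp1 was at -1.68, Kl at -1.53, Folr1 at -1.17, Sostdc1 at -1.16, and Cldn2, Trpv4 and Slc4a5 at -1.12, each lower than by limma, and 0 were called. Clic6, the member with the narrowest range, changed by -0.57 ± 0.48 (adjusted p = 0.506 by limma), and its interval from -1.60 to 0.47 was the tightest. The other log2 changes by limma were -0.86 for Kl, -0.79 for Slc4a5, -0.62 for Trpv4, -0.61 for Cldn2, -0.59 for Sostdc1, -0.36 for Aqp1 and 0.43 for Folr1. The members' median was -0.59, against -0.0059 over all genes tested. In 0 of the 9 did the WT and KO libraries not overlap, where 13.8% of all genes did not.

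The result hung on which libraries were present. Without WT 3 and WT 4, 7 of 9 members were called lower in KO, where 2.11% of all genes were called in either direction, with log2 changes from -1.49 for Clic6 to -3.13 for Kl. That fit keeps only WT 1 and WT 2, the highest libraries for every member, so its direction is fixed by the libraries kept and is no evidence of a fall in KO. Without KO 5 and KO 6, 0 of 9 were called, where 10.6% of all genes were. Without WT 1 and WT 2, and without KO 7 and KO 8, only 4 members passed the filter and 0 were called, where 2.51% and 2.3% of all genes were. Without WT 1 and WT 2 Ttr was 4.70 higher in KO with an adjusted p of 0.653 by limma. With the log2 level of Ttr as a covariate, 5 of the 8 other members tested (Kl, Trpv4, Slc4a5, Cldn2 and Clic6) were called lower in KO, where 10.4% of all genes were called in either direction. That fit conditions on the gene that splits the libraries and assumes a straight line on log2 axes, so these calls are not taken as a fall in KO. These fits were chosen after the values had been seen.

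Among the 36 other choroid plexus genes, limma tested 28 in cerebellum and called 0, with a median log2 change of -0.41 and 5 of 28 above 0. The pathways around the members gave few calls. Of 19 tested genes of ion and water transport in fluid secretion, 1 was higher, the bicarbonate cotransporter Slc4a7 at 0.23. Of 13 tested genes of folate use, 2 were higher, Tyms at 0.44 and Shmt2 at 0.26, enzymes of thymidylate and serine metabolism. Of 9 tested genes of thyroid hormone and retinol, 1 was lower, Dio2, the deiodinase that activates thyroxine, at -0.27. Axin2, a WNT feedback gene, was higher at 0.24 as the 1 call of 14 tested BMP and WNT partners of Sostdc1, and 0 of 7 klotho and FGF genes and 0 of 11 claudin and junction genes were called. Among marker lists, Col3a1 (0.38) and Col1a2 (0.25) were higher and Fmod (-0.29) and Lum (-0.62) lower of 16 meningeal genes, Slco1a4 was higher (0.20) of 12 endothelial genes, and Tfap2d was higher of 2 tested brainstem genes. Each of these shares stands beside the 6.44% of all genes. Tfap2d reached 1 CPM in the KO libraries only, so that it passed the filter through the group where it is high. The filter thus fixed its direction, and its call is no evidence of a rise in KO.

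**Figure D4:**
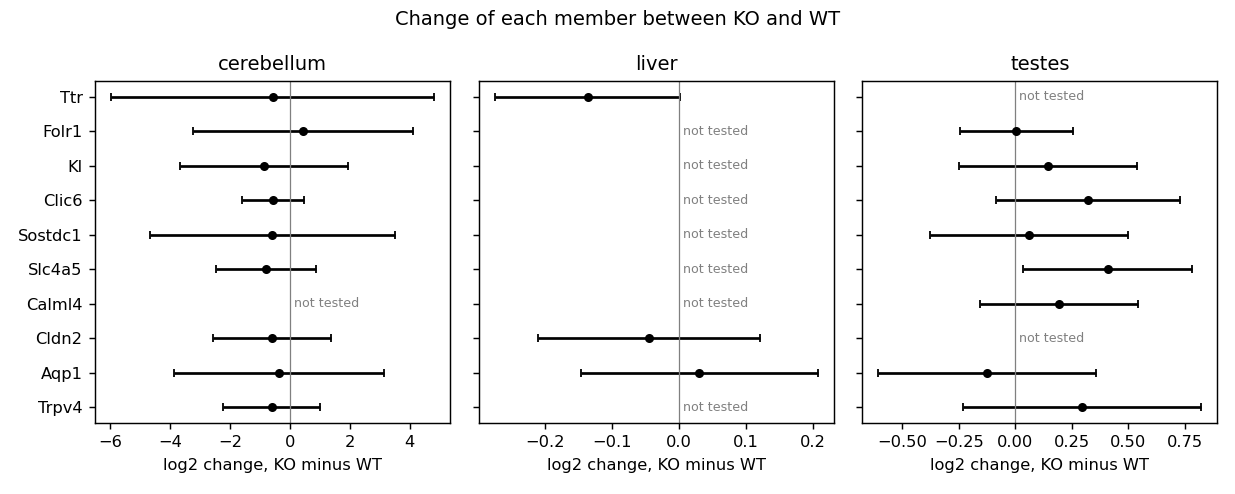
Log2 change, KO minus WT, of each member with its 95% interval from limma-voom in cerebellum, liver and testes, on a separate horizontal scale for each tissue; members that failed the filter are marked as not tested. The cerebellum interval of Ttr runs from -5.97 to 4.82, and its liver interval from -0.27 to 0.0018.

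Liver held 3 of the members at high level. Ttr was at 5097, 5081, 4573 and 3666 CPM in WT and at 3881, 3947, 4923 and 5001 CPM in KO. The genotypes overlapped, and WT 4, KO 5 and KO 6 were lowest. Aqp1 ran from 85.1 to 101 CPM in WT and from 81.4 to 98.6 CPM in KO, and Cldn2 from 63.9 to 87.6 CPM in WT and from 62.8 to 79.8 CPM in KO. With these 3 tested, limma called 0, where 5.91% of 12816 genes were called, and edgeR and DESeq2 called 0 as well. Unadjusted p was under 0.05 for 0. The log2 change was -0.14 ± 0.063 for Ttr (adjusted p = 0.220), -0.04 ± 0.075 for Cldn2 and 0.03 ± 0.080 for Aqp1, and the interval of Ttr ran from -0.27 to 0.0018. Ttr was at -0.0424 by edgeR and -0.0387 by DESeq2. The WT and KO libraries overlapped for each of the 3, and 12.7% of all genes tested there did not overlap.

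The other 7 members were scarce in liver. Sostdc1 had 0 counts in all 8 liver libraries, Kl and Clic6 had 0 to 3 counts, Folr1 0 to 5 and Slc4a5 0 to 7. Calml4 ran from 0.33 to 0.96 CPM and Trpv4 from 0.15 to 0.89 CPM. The lists around the members stand here beside the 5.91% of all genes called in liver. Limma called Igfbp2 (0.95), Enpp2 (0.54) and Slc39a4 (0.44) higher and Krt8 (-0.42) lower of 12 tested other choroid plexus genes. Serpina7, the thyroxine-binding globulin, was higher by 1.43, the 1 call of 10 tested thyroid hormone and retinol genes. Of 10 tested klotho and FGF genes, Fgf21 was higher by 2.74 and the receptors Fgfr1 (-0.79) and Fgfr3 (-0.44) were lower. The most calls fell in the meningeal, fibroblast and mural list, with 1 gene higher and 6 lower of 12 tested and a median of -0.50, among them Acta2 (-1.14), a smooth muscle actin, and the collagen gene Col1a1 (-1.03). Single calls were Clcn2 (-0.36) of 17 ion and water transport genes, Axin2 (0.41) of 11 BMP and WNT partners, Cldn1 (0.55) of 11 claudin and junction genes and Rarres2 (0.30) of 2 ependymal genes. Of 14 folate, 11 endothelial and 2 brainstem genes tested, 0 were called.

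In testes Ttr was near absent, with 0 to 2 counts in each of the 8 libraries, and Folr1 was the member highest per length. Folr1 ran from 11.8 to 13.4 CPM in WT and from 11.001 to 17.3 CPM in KO. Slc4a5 was at 1.495, 2.20, 1.87 and 1.45 CPM in WT and at 2.24, 2.31, 3.00 and 2.39 CPM in KO. All KO libraries lay above all WT libraries, though WT 2 and KO 5 nearly met. Its log2 change was 0.41 ± 0.17 (unadjusted p = 0.0345, adjusted p = 0.106 by limma). Clic6 ran from 3.74 to 4.78 CPM in WT and from 4.33 to 8.41 CPM in KO, a log2 change of 0.32 ± 0.19. Of the 8 members tested in testes (not Ttr or Cldn2), 0 were called by limma, edgeR or DESeq2, 1 had an unadjusted p under 0.05, and 20.5% of 19329 genes were called. Slc4a5 was the 1 of 8 without overlap, where 28.6% of all genes did not overlap. The remaining log2 changes were 0.30 for Trpv4, 0.19 for Calml4, 0.14 for Kl, 0.06 for Sostdc1, 0.0046 for Folr1 and -0.12 for Aqp1.

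The lists in testes stand beside the 20.5% of all genes called there. Of 17 tested ion and water transport genes, 6 were higher, among them the bicarbonate transporter Slc4a10 (0.61) and the kinase Wnk1 (0.31), and Car2, a carbonic anhydrase, was lower (-0.46). Of the 22 other choroid plexus genes tested, 3 were higher, Enpp2 (0.48), Slc13a4 (0.40) and Wfikkn2 (0.72), and 2 lower, Ace (-0.17) and Krt8 (-0.44). Bmp4 (0.98) and Lrp6 (0.44) were higher and Sost (-1.21) lower of 12 BMP and WNT partners. Of 13 folate genes Mtr (0.32) was higher and Fpgs (-0.22) lower. Adam10 (0.36) and Adam17 (0.26), proteases that shed klotho, were higher of 9 klotho and FGF genes, and 3 of 9 claudin and junction genes were higher, among them Cldn11 (0.40). Among marker lists, 2 of 13 meningeal genes were higher, 2 of 9 ependymal genes and 1 of 8 brainstem genes lower, and 0 of 11 endothelial genes were called.

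Whether the KO effect differed between tissues was tested over all 24 libraries. All 10 passed the filter over the 24 libraries, but most did so through the tissue where they are high. In both tissues of a contrast the filter was passed by 3 members for cerebellum against liver (Ttr, Cldn2 and Aqp1), by 1 for testes against liver (Aqp1) and by 7 for testes against cerebellum (all but Ttr, Calml4 and Cldn2). Of these 0, 0 and 0 were called by limma or edgeR, and 0 had an unadjusted p under 0.05. For the others, such as Sostdc1 with 0 counts in liver or Ttr with 0 to 2 counts in testes, a KO effect in the tissue where they are scarce could not be measured. The shares of all genes called were 2.49%, 7.03% and 6.14%.

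Levels differed between and within the tissues. Per kilobase of exon, WT liver held 3882 ± 566 CPM of Ttr (SD, n = 4), 34.4 ± 2.78 of Aqp1 and 22.8 ± 3.11 of Cldn2, levels whose ranges did not overlap. Calml4 (0.18 ± 0.075) and Trpv4 (0.15 ± 0.046) came next and did not differ beyond their spread. WT testes held 5.40 ± 0.32 CPM per kilobase of Folr1, above all others there, then 1.11 ± 0.11 of Clic6, 0.93 ± 0.093 of Sostdc1 and 0.91 ± 0.25 of Aqp1, whose ranges overlapped. Calml4 (0.64), Kl (0.40), Slc4a5 (0.30), Trpv4 (0.28) and Cldn2 (0.060) followed, and of these neighbours Calml4 and Kl, and Trpv4 and Cldn2, did not overlap. In WT cerebellum Ttr ran from 0.69 to 811 CPM per kilobase, Clic6 from 1.57 to 7.46, Kl from 0.14 to 6.10 and Sostdc1 from 0 to 4.72, so that each member overlapped its neighbour in the order.

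Between WT tissues, limma called 8 of 10 members for cerebellum against liver, where 85.3% of all genes were called, 8 of 10 for testes against liver, where 89.7% were, and 5 of 10 for testes against cerebellum, where 89.3% were. None of these shares was above that of all genes. In the comparisons with liver most members passed the filter in only one of the tissues, so that the choice of tested genes favours a difference. Of those that passed it in both tissues of a comparison, 3 of 3, 1 of 1 and 2 of 7 were called. Cldn2 and Aqp1 were higher in liver, with log2 differences of cerebellum from liver of -6.65 ± 0.58 and -8.46 ± 0.93 (SE), as was Ttr at -8.14 ± 1.39. The fit works on log values, in which the low WT 3 and WT 4 cerebellum libraries weigh heavily. Mean CPM gave smaller gaps. In WT cerebellum against WT liver it was 3.46 against 75.9 for Cldn2, 3.11 against 90.4 for Aqp1 and 475 against 4604 for Ttr. Kl, at a mean of 28.9 CPM in WT cerebellum, was at least 260-fold above the limit in WT liver (per library, 3 counts), and Clic6, at 17.7 CPM, at least 159-fold. These means rest mostly on WT 1 and WT 2. WT 3 and WT 4 held 2.01 and 1.27 CPM of Kl and 6.15 and 7.34 CPM of Clic6, so that their folds were smaller. Ttr in WT liver was at least 45908-fold above the limit in WT testes, and its cerebellum mean of 475 CPM at least 4735-fold, although WT 3 and WT 4 alone held 1.09 and 0.82 CPM. Folr1 was higher in testes than in cerebellum (4.78 ± 1.10) in the fit, with 7.28 CPM in the highest WT cerebellum library and 11.8 CPM in the lowest WT testes library. Calml4 and Trpv4 were called in neither comparison with liver. The wide spread of the cerebellum libraries enters all comparisons with that tissue.

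**Figure D5:**
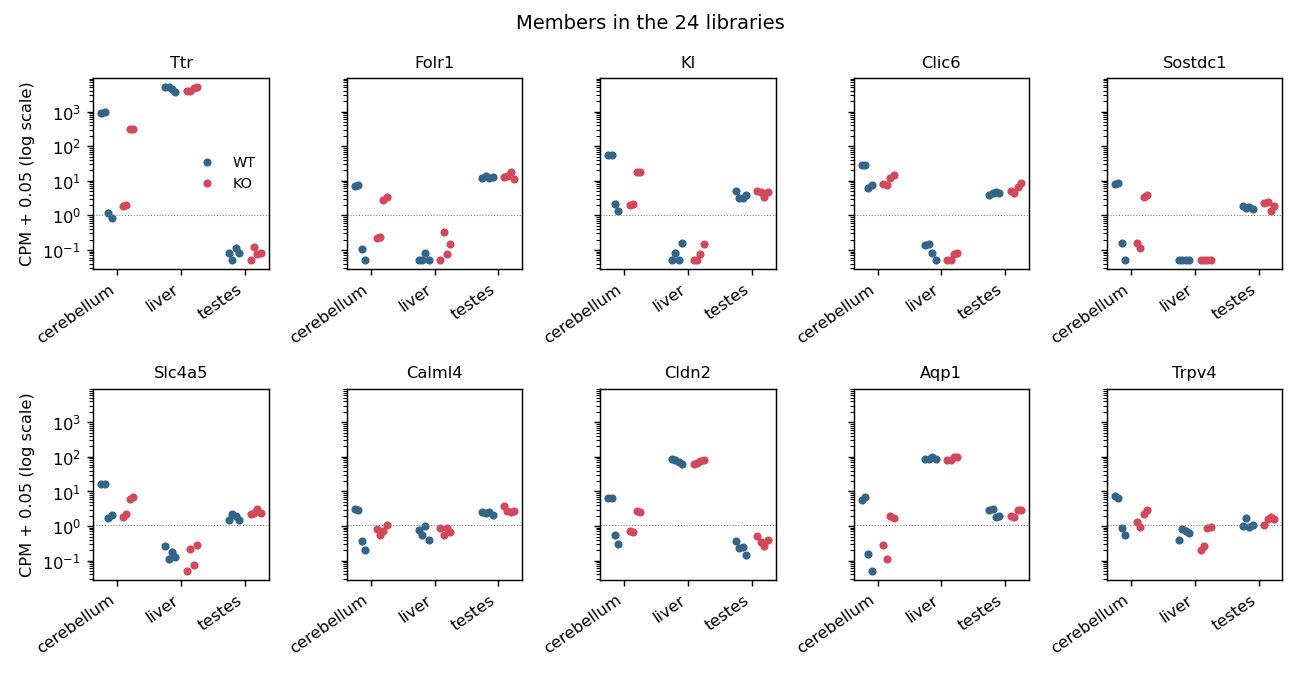
CPM plus 0.05, on a log axis, of each member in the 24 libraries by tissue (WT blue, KO red, 1 point per library), with a dotted line at 1 CPM. Ttr, Cldn2 and Aqp1 are highest in liver, Folr1 in testes, and the cerebellum points of Ttr lie at 0.82 to 1.96, 312 to 317 and 935 to 962 CPM.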

How the data were processed

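RNA of 24 mouse samples was read as stranded total RNA libraries after removal of ribosomal RNA. The authors aligned the reads with STAR and deposited expected counts per gene from RSEM (mm10, GENCODE M21), with versions and strand setting not given in the sources used here. These expected counts are not normalized, and fractions make up 12.3% to 16.6% of a library's values above 0. All 55450 gene identifiers matched GENCODE M21, and 0 columns were left without a sample. No member's exons overlap those of another gene.

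Groups came from the labels. Each tissue was fitted apart: genes with at least 1 CPM in at least 4 of its 8 libraries, voom with quantile normalization and limma 3.58.1 (R 4.3.3), KO against WT, with Benjamini-Hochberg adjustment over all genes tested and a threshold of 0.05. Contrasts between tissues used limma-voom with TMM factors over 24 libraries. Alternatives were edgeR 4.0.16 and DESeq2 1.42.0 on rounded counts, other scalings, no filter, each library left out, and a replicate block. Intervals are exact binomial (counts, 95%) or from limma. On simulated counts with 200 genes changed by 1 log2 unit, the cerebellum, liver and testes fits recovered 94%, 81.5% and 89.5%, with 4.08%, 5.23% and 6.77% of calls false. The contrast of KO effects between cerebellum and liver recovered 78.5%, with 21.5% of calls false.

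Members, lists and tests were chosen with earlier results of these data known. Named are all members, the called genes of each list in cerebellum (up to 5) and the 8 genes most like Ttr. Predicted genes, Rik genes and pseudogenes were left out of the last. In liver and testes only some of the called list genes are named. These and other named genes were chosen after their values were seen. Whether samples of different tissues with the same number came from the same animal was left undecided. Over 24 pairs with the same number, r of deviations from the group means ran from -0.140 to 0.144, with 6 over 0.1. In 7 of the 24 the same number was the best match. Different tissues of an animal need not deviate alike, so a low r cannot exclude a shared animal. The thyroid hormone and retinol list in testes is not reported here. Levels per kilobase use merged exon lengths. The cerebellum pairs left out, the summed libraries and the Ttr covariate were added after seeing the data. Figures were drawn with matplotlib 3.10.9.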

Additional observations from a re-analysis of the deposited data

Results flagged for a closer look

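Of 51 groups of 4 libraries examined for a member, 1 held a library far from the others. Trpv4 in testes was at 1.71 CPM in WT 2, with 0.90 to 1.006 CPM in the other WT libraries, a gap larger than Dixon's 95% limit for 4 values. Chance gives about 1 such group in 20. The 4 KO testes libraries ran from 1.06 to 1.83 CPM.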

How the results depend on the processing

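The count of members called for KO against WT stayed at 0 in liver and in testes under every alternative run, and at 0 in cerebellum with edgeR, DESeq2, TMM factors, no filter, neighbouring libraries summed and each single library left out (0 to 0). Without WT 1, WT 2, KO 7 or KO 8, though, only 5 of the members passed the filter (Ttr, Kl, Clic6, Slc4a5 and Trpv4). It moved to 7 without WT 3 and WT 4 and to 5 with Ttr as a covariate, both added after seeing the data and not taken as a fall in KO. Directions turned for several members, and those that turned were not called, except Folr1 without WT 3 and WT 4. Folr1 in cerebellum went to -1.17 with edgeR and -1.16 with DESeq2, and Aqp1 in liver to -0.0093, -0.0047 and -0.0031 with edgeR, DESeq2 and TMM factors. With single libraries left out, cerebellum log2 changes ran from -2.10 to 1.07 for Ttr, -1.78 to 0.0266 for Kl and, over the 4 fits that kept them, -1.14 to 1.38 for Folr1, -2.17 to 0.82 for Sostdc1 and -1.93 to 0.54 for Aqp1. In liver they ran from -0.0855 to 0.0019 for Cldn2 and -0.0173 to 0.0877 for Aqp1, and in testes from -0.11 to 0.0895 for Folr1 and -0.0443 to 0.26 for Sostdc1. Without WT 1 and WT 2 the changes were 4.70 for Ttr, 1.92 for Kl, 0.56 for Clic6 and 0.89 for Slc4a5. Without KO 5 and KO 6 they were 2.92 for Ttr, 0.64 for Kl, 1.72 for Sostdc1, 0.0499 for Slc4a5, 0.30 for Cldn2 and 0.94 for Aqp1. Without WT 3 and WT 4 Folr1 was at -2.84, and with the Ttr covariate Sostdc1 was at 0.074. The cause was not tested.

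With the replicate block, 0 members were called in the 3 contrasts of KO effects, and 8, 8 and 7 for WT cerebellum against liver, testes against liver and testes against cerebellum. With each library left out, these WT counts ran from 8 to 9, 8 to 9 and 5 to 7. Over all genes, summing neighbouring libraries gave 48 calls in cerebellum, 10 in liver and 1 in testes, from 4 samples a tissue, against 1045, 757 and 3957 in the fits reported. Without a filter 685 were called in cerebellum, 402, 339, 1689 and 367 without the pairs from 1 and 2 to 7 and 8, and 1688 with the Ttr covariate. DESeq2 called 1408 in liver. With single libraries left out, 417 to 2317 genes were called in cerebellum, 284 to 795 in liver and 1711 to 4913 in testes, so that the shares of all genes called move as much. Depth limits the members with few counts: Calml4 rested on 3 to 71 counts in cerebellum, and Sostdc1, Folr1 and Aqp1 on 0 to 4 in the lowest libraries there.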
